A study of Homo sapiens with 9 samples.

Results

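A set of 10 genes that draw monocytes into tissue or sense that call was followed across 9 mouse tumors. They were the CC chemokines Ccl2, Ccl7, Ccl8, Ccl12, Ccl6 and Ccl9, the fractalkine gene Cx3cl1, and the receptors Ccr1, Ccr2 and Cx3cr1. The members were taken by symbol from a table of 17369 genes, and all 10 had a row and passed the filter on low values, under which 10263 genes were tested. The tumors came from TBP3743, a murine anaplastic thyroid cancer line derived from B6129SF1 mice in which the thyroid alone carried Braf V600E and lacked Trp53, so that the tumor cells of all 3 groups share both lesions. In the original/B6129SF1 group, original TBP3743 cells were injected into B6129SF1 mice. In the adapted/B6129SF1 group, TBP3743 cells adapted by 3 rounds of passage through C57BL/6 mice were injected into B6129SF1 mice, and in the adapted/C57BL/6 group the same adapted cells were injected into C57BL/6 mice. Each group held 3 tumors. The hosts were female, 6 weeks old and immunocompetent, received 100000 cells in the thyroid, and gave their tumors on day 14. The adapted cells were grown from the largest tumors of each round, so they are one selected lineage rather than independent derivations. The comparison of adapted/B6129SF1 with original/B6129SF1 asks what changed with the cells in one host, and that of adapted/C57BL/6 with adapted/B6129SF1 what changed with the host for one kind of cell.

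Of the chemokines of the Ccl2 group, also called monocyte chemoattractant proteins, Ccl2, Ccl7 and Ccl12 bind Ccr2. This receptor lets Ly6C-high monocytes leave the bone marrow and enter inflamed tissue and tumors. Tumor cells, fibroblasts, endothelium and macrophages can all make these ligands. Ccr2 sits mainly, though not only, on the monocytes and on cells freshly derived from them, and is lost as they mature into macrophages. Cx3cl1 is a membrane-bound chemokine that also acts as an adhesion molecule once its receptor, Cx3cr1, engages it on patrolling monocytes, macrophages and some lymphocytes.

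RNA was measured in whole tumors, so fewer cells of a type and less RNA per cell cannot be told apart. Values are FPKM, fragments scaled to transcript length and library size, and allow levels to be compared between genes. The labels name a human organism, but the gene symbols, the genome build and the hosts are those of the mouse. They also name a cancer epithelial cell. Krt8 and Krt18, keratins of simple epithelium, lay at 153 to 615 and 110 to 390 FPKM over the tumors, while the epithelial adhesion genes Epcam and Cdh1 stayed at 0.0949 to 2.50 and 1.03 to 4.48 FPKM. Of the thyroid genes, Nkx2-1 lay at 23.5 to 44.5 FPKM and Tshr and Slc5a5 at no more than 0.0703 and 0.142 FPKM. The FPKM of a tumor summed to between 458000 and 540500, and steps between low values put the depths at roughly 0.959 to 1.35 times that of original/B6129SF1 replicate 1. Transcripts of 5 muscle genes made up 4.97% of the FPKM sum of adapted/B6129SF1 replicate 3, 0.768% of that of adapted/C57BL/6 replicate 1 and no more than 0.0928% of the others.

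The ligands were abundant and the receptors moderate in these tumors. Over the 9 tumors, mean levels ran from 213 FPKM for Ccl6, 168 for Ccl8, 97.1 for Ccl2, 86.2 for Ccl12, 83.8 for Ccl9 and 71.7 for Ccl7 down to 38.3 for Ccr1, 27.9 for Ccr2, 22.5 for Cx3cl1 and 13.3 for Cx3cr1. Neighbours in this order often changed places. Ccl6 exceeded Ccl8 in 6 tumors, Ccl2 exceeded Ccl12 in 6, Ccl12 exceeded Ccl9 in 5, Ccl9 exceeded Ccl7 in 4 and Ccr2 exceeded Cx3cl1 in 5 of the 9, so these neighbours did not differ beyond their spread. Steadier orders were Ccl6 over Ccl9 in all 9 tumors and Ccl2 over Ccl7, Ccl8 over Ccl2 and Cx3cl1 over Cx3cr1 in 8 of 9. Among the genes tested, the mean of Ccl6 stood at the 96.9th percentile, that of Ccl2 at the 93.0th and that of Cx3cr1 at the 47.5th.

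The members differed in how much they varied from tumor to tumor. The highest of the 9 values was 10.96 times the lowest for Cx3cr1, 6.40 times for Ccl8, 5.16 times for Ccl6, 5.06 times for Ccl7 and 4.48 times for Ccl2. Ccr1 and Cx3cl1 were the steadiest, with ratios of 1.74 and 1.97. A single tumor, adapted/B6129SF1 replicate 2, held the lowest value of all 9 for each of the 6 CC ligands and the highest for both Ccr2 and Cx3cr1. Adapted/C57BL/6 replicate 3 held the highest values of Ccl2, Ccl7, Ccl12 and Ccr1. Without adapted/B6129SF1 replicate 2, the log2 differences between adapted/B6129SF1 and original/B6129SF1 went from -0.74 to -0.46 for Ccl2, from -0.35 to -0.13 for Ccl12, from 0.43 to 1.07 for Ccl8, from 0.09 to 0.46 for Ccl9 and from 1.14 to 0.65 for Cx3cr1.

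**Figure D1:**
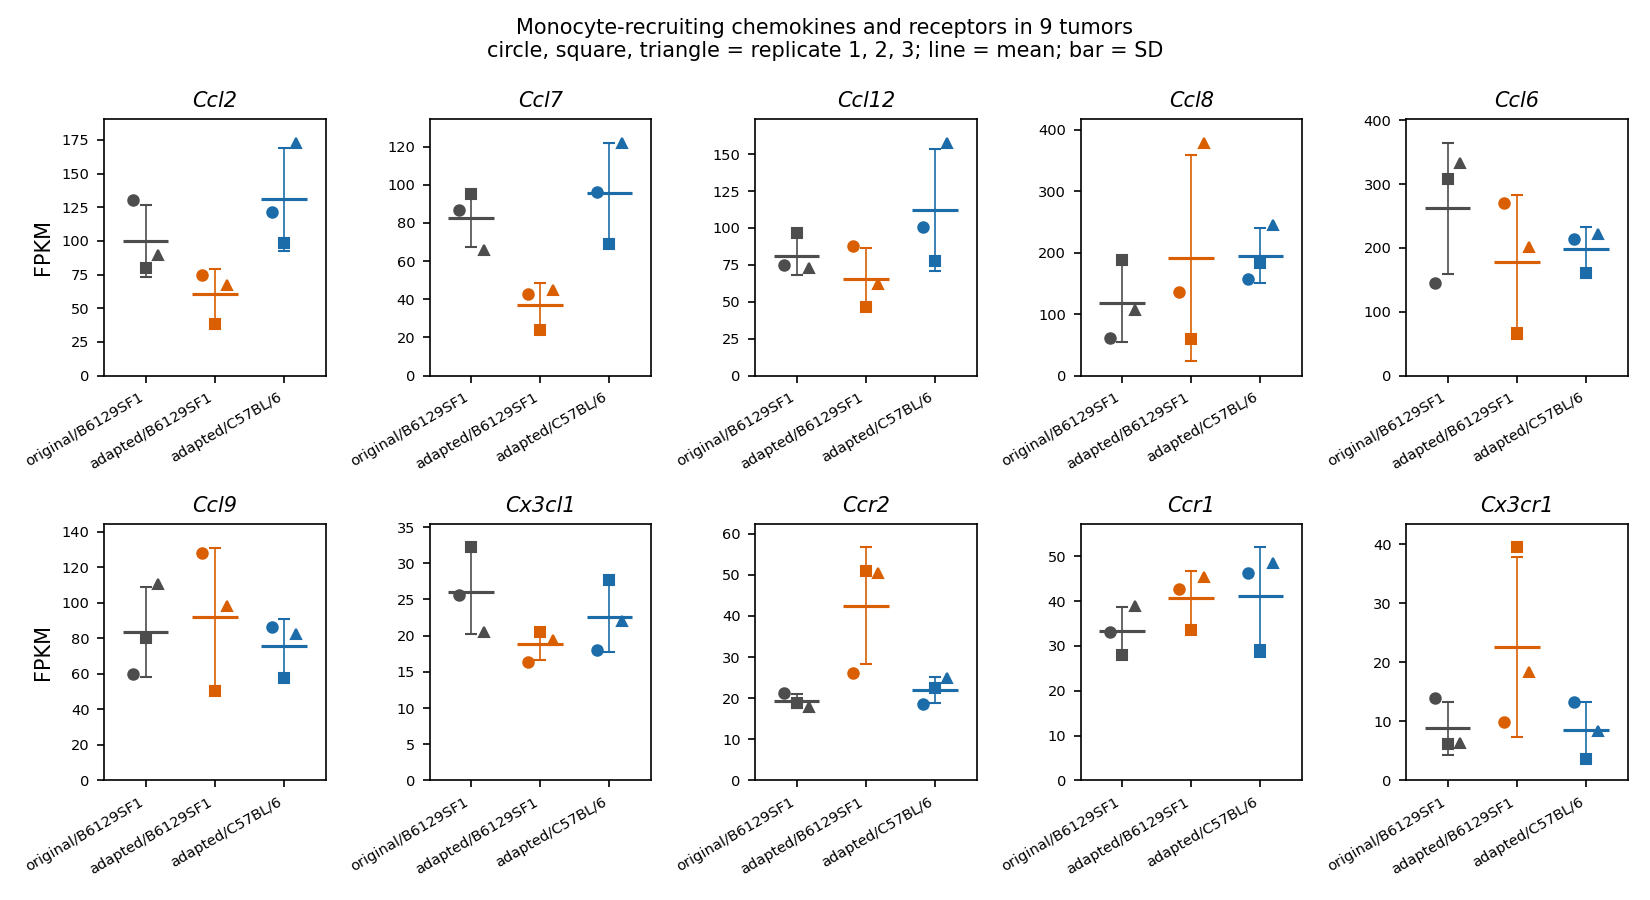
Level in FPKM (vertical axes, each starting at 0) of each of the 10 genes in every tumor, by group (horizontal axis); each point is 1 tumor, the line is the mean of 3 tumors and the bar is 1 SD. Ccl7 lies lower and Ccr2 higher in all adapted/B6129SF1 tumors than in all original/B6129SF1 tumors, whereas the values of Ccl8 and Cx3cr1 spread widely within the adapted/B6129SF1 group.

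In tumors of adapted cells grown in B6129SF1 mice, the monocyte attractant Ccl7 fell and the monocyte receptor Ccr2 rose against tumors of original cells in the same host. Ccl7 read 86.6, 94.9 and 65.8 FPKM in original/B6129SF1 replicates 1 to 3 and 42.5, 24.1 and 44.7 in the adapted/B6129SF1 replicates. All 3 adapted/B6129SF1 tumors lay below all 3 original/B6129SF1 tumors. The means were 37.1 ± 11.3 against 82.4 ± 15.0 FPKM (SD, n = 3 each), a log2 fold change of -1.16 (SE 0.28, 95% interval -1.79 to -0.54, limma with Benjamini-Hochberg adjustment, adjusted p = 0.0376). Without adapted/B6129SF1 replicate 2 the change was -0.89 and its adjusted p from limma was 0.0799. With a further 8 alternatives, among them the removal of any original/B6129SF1 tumor, the adjusted p from limma also exceeded 0.05.

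Ccr2 moved the other way. It read 21.1, 18.8 and 17.9 FPKM in the original/B6129SF1 tumors and 26.0, 50.9 and 50.4 in the adapted/B6129SF1 tumors. Every adapted/B6129SF1 tumor exceeded every original/B6129SF1 tumor, although adapted/B6129SF1 replicate 1 stood apart from the other two and close to the original/B6129SF1 range. The means were 42.4 ± 14.2 against 19.3 ± 1.67 FPKM (SD, n = 3 each), a log2 fold change of 1.04 (SE 0.24, 95% interval 0.49 to 1.59, limma, adjusted p = 0.0342). The change stayed positive in 16 of 16 alternatives, from 0.88 to 1.35, and passed both thresholds in 6 of them. It missed them without adapted/B6129SF1 replicate 2 (0.88, limma adjusted p = 0.0919) or replicate 3 (0.89, limma adjusted p = 0.085). The removal of any original/B6129SF1 tumor had the same result. The largest limma adjusted p, 0.109, came without original/B6129SF1 replicate 3 (0.99).

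Among all genes tested in this comparison, 2.36% were called higher and 0.857% lower, called meaning more than 1 on the log2 scale in either direction with an adjusted p below 0.05. Of the 10 members, 1 was called higher and 1 lower. The members' median log2 fold change was -0.13, against -0.03 over all genes, with 5 members positive and 5 negative. An unadjusted limma p under 0.05 was reached by 3 members, Ccl7, Ccr2 and Ccl2, and by 26.5% of all genes. Values of the groups did not overlap for the same 3 members and for 29.6% of all genes, so the share of members is close to the background.

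Ccl2, the best known ligand of Ccr2, shared the direction of Ccl7 in these tumors without passing the test. It read 130.3, 80.1 and 89.8 FPKM in the original/B6129SF1 tumors, 74.9, 38.6 and 67.3 in the adapted/B6129SF1 tumors and 121, 98.1 and 173 in the adapted/C57BL/6 tumors. The adapted/B6129SF1 tumors lay below all tumors of the other groups, and original/B6129SF1 and adapted/C57BL/6 overlapped. Adapted/B6129SF1 differed from original/B6129SF1 by -0.74 (SE 0.30, 95% interval -1.42 to -0.07, limma adjusted p = 0.156).

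Ccl12, a mouse ligand of Ccr2, showed a weaker form of the pattern. It read 74.6, 96.7 and 72.7 FPKM in the original/B6129SF1 tumors, 87.7, 46.2 and 61.8 in the adapted/B6129SF1 tumors and 101, 77.8 and 158 in the adapted/C57BL/6 tumors. Adapted/B6129SF1 replicate 1 lay inside the original/B6129SF1 range, so the groups overlapped. The log2 fold change was -0.35 (limma adjusted p = 0.469).

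Ccl8 belongs to the same family and in the mouse is known as a ligand of Ccr8. It read 60.8, 188 and 108 FPKM in the original/B6129SF1 tumors, 135, 59.2 and 379 in the adapted/B6129SF1 tumors and 158, 182 and 245 in the adapted/C57BL/6 tumors. The adapted/B6129SF1 group held both the lowest and the highest value of the 9 tumors. Its SD of 167 FPKM was close to its mean of 191, and the log2 fold change against original/B6129SF1 was 0.43, with an interval from -0.99 to 1.85 (limma adjusted p = 0.687). The log2 ratio of Ccl8 to Ccl2 differed by 1.18 in adapted/B6129SF1 against original/B6129SF1, and the groups overlapped (exact permutation p = 0.4). A departure of Ccl8 from Ccl2 was thus not shown. Adapted/B6129SF1 replicate 3, the tumor with the most Ccl8, also held the most muscle transcript and the highest sum of mast cell genes, 93.1 FPKM against 9.35 to 31.8 in the other tumors. It held the highest sum of the Ly6C-high monocyte list too (307 FPKM), in which Ly6c2, Plac8 and Ms4a4c were at their highest and Vcan and F13a1 were not. Their part in the Ccl8 value was not tested. Ccr8 lay between 0.0753 and 1.02 FPKM and did not pass the filter on low values.

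Sums over the 4 ligands show their share in the total. The sum without Ccl8 was formed with the values known and rests on Ccl2 and Ccl7, which already did not overlap, so it adds no evidence to theirs. Ccl2, Ccl7 and Ccl12 summed to 292, 272 and 228 FPKM in the original/B6129SF1 tumors, 205, 109 and 174 in the adapted/B6129SF1 tumors and 318, 245 and 453 in the adapted/C57BL/6 tumors. The adapted/B6129SF1 sums lay below all others. With Ccl8 added, the sums became 352, 459 and 336 FPKM in original/B6129SF1, 340 in replicate 1, 168 in replicate 2 and 553 in replicate 3 of adapted/B6129SF1, and 476, 427 and 698 in adapted/C57BL/6, and the groups overlapped. Ccl8 made up 17.3% of the sum in original/B6129SF1 replicate 1 and 68.6% in adapted/B6129SF1 replicate 3, while the share of Ccl7 was 19.6% to 24.6% in original/B6129SF1, 8.08% to 14.3% in adapted/B6129SF1 and 16.1% to 20.2% in adapted/C57BL/6. Ccl7 by itself already lay apart, so its shares add no evidence. The log2 ratio of Ccl7 to Ccl2 differed by -0.42 in adapted/B6129SF1 against original/B6129SF1, and the groups overlapped (exact permutation p = 0.2). Ccl2, Ccl7, Ccl12 and Ccl8 resemble each other in sequence, as do Ccl6 and Ccl9, and how fragments matching several of them were divided is not given in the sources used here.

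**Figure D2:**
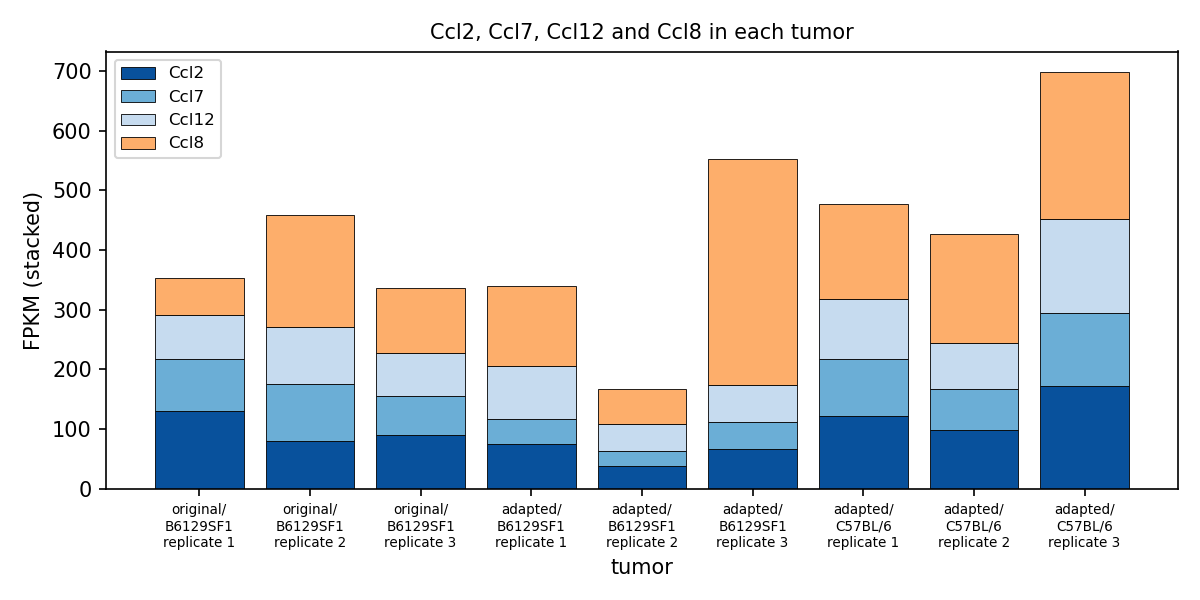
Stacked bars of the levels in FPKM (vertical axis, from 0) of Ccl2, Ccl7, Ccl12 and Ccl8 in each of the 9 tumors (horizontal axis). The whole bars reach from 168 FPKM in adapted/B6129SF1 replicate 2 to 698 in adapted/C57BL/6 replicate 3, and the Ccl8 segment is the one that lengthens the bar of adapted/B6129SF1 replicate 3.

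In tumors of adapted cells in C57BL/6 mice, no member passed the test against original/B6129SF1. Ccl7 read 96.0, 69.0 and 122 FPKM and Ccr2 18.6, 22.6 and 24.9 FPKM in the adapted/C57BL/6 tumors, and both ranges overlapped those of original/B6129SF1. Their log2 fold changes were 0.19 (95% interval -0.44 to 0.82) and 0.18 (95% interval -0.37 to 0.72). For Ccl2 the difference was 0.38 (95% interval -0.30 to 1.06), for Ccl12 0.41 (95% interval -0.25 to 1.07) and for Ccl8 0.83 (95% interval -0.59 to 2.25). The intervals of Ccl2, Ccl12 and Ccl8 include changes above 1 on the log2 scale, so changes of that size were not excluded.

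Here 0 of the 10 members were called, against 2.42% of all genes called higher and 0.672% called lower. The smallest adjusted p of a member by limma was 0.432, and 0 members had an unadjusted p under 0.05, against 24.4% of all genes. Groups did not overlap for 0 members and for 32.8% of genes. The median change of the members was 0.18, against -0.03 over all genes. Both comparisons so far use the same original/B6129SF1 tumors.

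Between the hosts of adapted cells, Ccl2, Ccl7 and Ccr2 were again apart in value but did not pass adjustment, and the groups overlapped for the other 7 members. All adapted/C57BL/6 tumors exceeded all adapted/B6129SF1 tumors in Ccl2 and Ccl7 and lay below them in Ccr2. The adapted/C57BL/6 group differed from adapted/B6129SF1 by 1.12 for Ccl2 (95% interval 0.44 to 1.80, limma adjusted p = 0.576) and by 1.35 for Ccl7 (95% interval 0.73 to 1.98, limma adjusted p = 0.326). For Ccl12 the difference was 0.76 (95% interval 0.10 to 1.42, limma adjusted p = 0.777), and for Ccr2 it was -0.86 (95% interval -1.41 to -0.32, limma adjusted p = 0.602).

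Few genes of any kind passed in this comparison, 0% of those tested being called higher and 0.0292% lower. An unadjusted limma p under 0.05 was reached by 5 of the 10 members, Ccl2, Ccl7, Ccl12, Ccr2 and Cx3cr1, and by 6.27% of all genes, and groups did not overlap for 3 members and 11.7% of genes. The first 3 of these genes were higher and both receptors lower in adapted/C57BL/6. The median change over the members was 0.30, against 0.01 over all genes. Leaving out adapted/B6129SF1 replicate 1 brought Ccr2 past the thresholds (-1.18, limma adjusted p = 0.0456), and neither Ccl2 nor Ccl7 passed in any of 16 alternatives. These differences use the same adapted/B6129SF1 tumors as the comparison with original/B6129SF1.

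**Figure D3:**
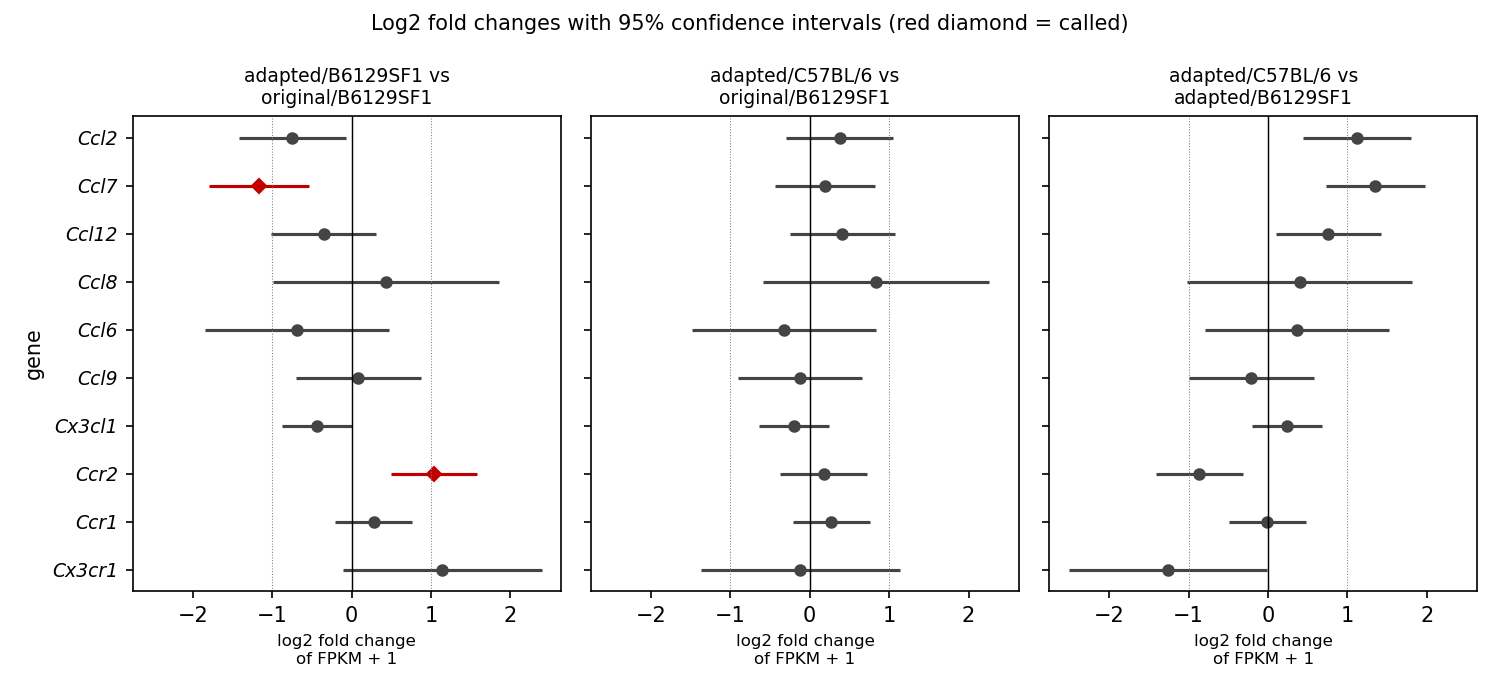
Difference in mean log2(FPKM + 1) (horizontal axis) of each gene for the 3 pairs of groups, with 95% intervals from limma; diamonds mark genes called with an adjusted p below 0.05 and a change of more than 1. Only Ccl7 (-1.16) and Ccr2 (1.04) in adapted/B6129SF1 against original/B6129SF1 carry a diamond.

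The ratio of Ccl2 to its receptor is a description only, since both genes already lay apart in adapted/B6129SF1, in opposite directions, and their ratio had to follow. The FPKM of Ccl2 was 6.16, 4.26 and 5.01 times that of Ccr2 in the original/B6129SF1 tumors, 2.88, 0.759 and 1.34 times in the adapted/B6129SF1 tumors and 6.54, 4.35 and 6.96 times in the adapted/C57BL/6 tumors. In adapted/B6129SF1 replicate 2 the receptor transcript outnumbered the ligand transcript per unit length. The log2 ratio differed by -1.78 between adapted/B6129SF1 and original/B6129SF1 and by -2.28 to -1.34 with any one tumor left out. Adapted/C57BL/6 and original/B6129SF1 differed by 0.20. Of 48 comparisons of such ratios, 14 reached p = 0.1, the smallest that an exact two-sided permutation test of 3 tumors against 3 allows, and the smallest Benjamini-Hochberg adjusted value was 0.343 (exact permutation).

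**Figure D4:**
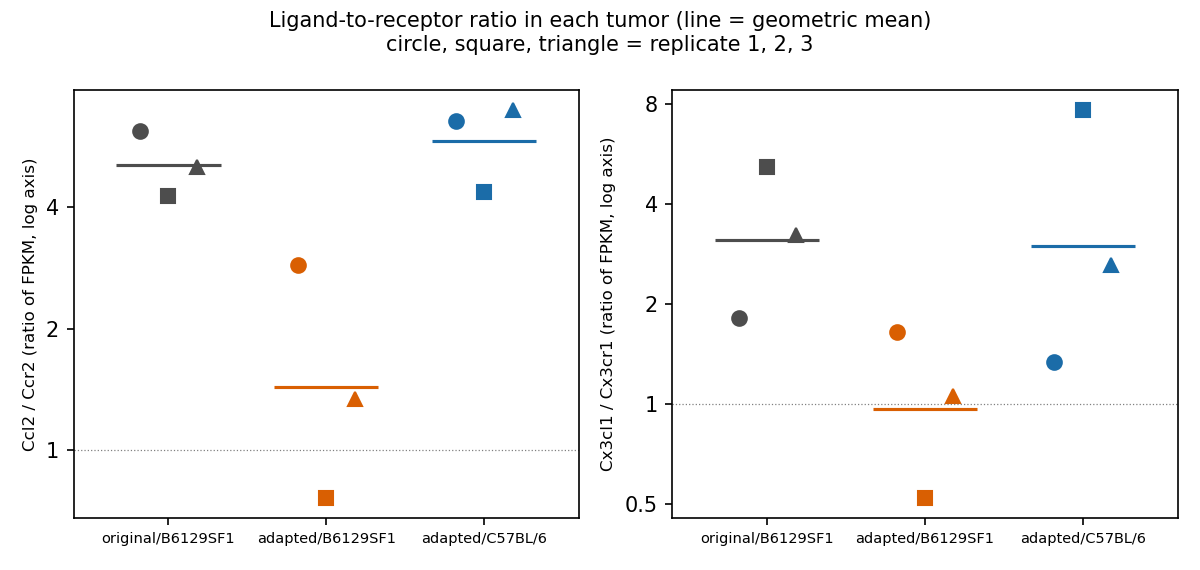
Ratio of ligand to receptor FPKM (vertical axes, logarithmic) for Ccl2 over Ccr2 and Cx3cl1 over Cx3cr1 in each tumor, by group (horizontal axis); points are tumors and lines are geometric means of 3. The Ccl2 to Ccr2 ratios of adapted/B6129SF1 (0.759 to 2.88) lie below all others, and those of adapted/C57BL/6 (4.35 to 6.96) overlap original/B6129SF1 (4.26 to 6.16).

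Cx3cr1, the fractalkine receptor, had the widest spread of the 10 genes and did not pass the test in any pair of groups. It read 14.04, 6.21 and 6.35 FPKM in the original/B6129SF1 tumors, 9.93, 39.5 and 18.4 in the adapted/B6129SF1 tumors and 13.4, 3.60 and 8.44 in the adapted/C57BL/6 tumors. Adapted/B6129SF1 replicates 2 and 3 held the highest values, and replicate 1 lay within both other groups. The log2 fold change was 1.14 against original/B6129SF1 (SE 0.55, 95% interval -0.11 to 2.39, limma adjusted p = 0.225), while adapted/C57BL/6 differed from adapted/B6129SF1 by -1.26 (95% interval -2.51 to -0.01, limma adjusted p = 0.79).

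Its ligand Cx3cl1 varied little. It read 25.5, 32.2 and 20.5 FPKM in the original/B6129SF1 tumors, 16.3, 20.6 and 19.4 in the adapted/B6129SF1 tumors and 17.9, 27.7 and 22.1 in the adapted/C57BL/6 tumors. All groups overlapped, and the largest of its differences, adapted/B6129SF1 against original/B6129SF1, was -0.44 (95% interval -0.88 to 0.00, limma adjusted p = 0.191). The ratio of Cx3cl1 to Cx3cr1 was 1.82, 5.18 and 3.23 in original/B6129SF1, 1.65, 0.521 and 1.06 in adapted/B6129SF1 and 1.34, 7.68 and 2.62 in adapted/C57BL/6. The adapted/B6129SF1 ratios lay below those of original/B6129SF1 (log2 difference -1.58, exact permutation p = 0.1) and overlapped those of adapted/C57BL/6 (exact permutation p = 0.2).

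Ccr1 and the ligands Ccl6 and Ccl9, which attract monocytes and other myeloid cells through it, showed no difference between groups that passed the test. Ccr1 read 33.1, 27.9 and 38.9 FPKM in the original/B6129SF1 tumors, 42.8, 33.6 and 45.4 in the adapted/B6129SF1 tumors and 46.2, 28.6 and 48.4 in the adapted/C57BL/6 tumors. Adapted/C57BL/6 and adapted/B6129SF1 differed by -0.01 (95% interval -0.49 to 0.48), an interval that leaves out changes of 1 on the log2 scale.

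Ccl6 read 145, 309 and 334 FPKM in the original/B6129SF1 tumors and 270, 64.7 and 202 in the adapted/B6129SF1 tumors. In the adapted/C57BL/6 tumors it lay between 160 and 222 FPKM, inside the range of original/B6129SF1. Ccl9 read 59.8, 80.3 and 111 FPKM in original/B6129SF1, 128, 50.7 and 98.1 in adapted/B6129SF1 and 86.4, 57.7 and 82.5 in adapted/C57BL/6. Both genes overlapped between all groups. Without adapted/B6129SF1 replicate 2 the difference of Ccl6 between adapted/B6129SF1 and original/B6129SF1 was -0.078 in place of -0.69. With all tumors, the log2 fold changes of Ccl6 and Ccl9 in adapted/B6129SF1 against original/B6129SF1 were -0.69 (95% interval -1.85 to 0.47, limma adjusted p = 0.418) and 0.09 (limma adjusted p = 0.9). The log2 ratio of Ccl9 to Ccl6 was higher in every adapted/B6129SF1 tumor than in every original/B6129SF1 tumor (0.77, exact permutation p = 0.1) and lower in every adapted/C57BL/6 than in every adapted/B6129SF1 tumor (-0.58, exact permutation p = 0.1).

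Myeloid markers were read beside these genes, since the receptors and several ligands are made by such cells. Of 12 macrophage genes, 11 were tested and 0 called in any pair. Adapted/B6129SF1 exceeded original/B6129SF1 in 10 of the 11, with a median log2 difference of 0.52, and their FPKM summed to 2504 to 3292 in original/B6129SF1, 3296 to 4805 in adapted/B6129SF1 and 2087 to 4066 in adapted/C57BL/6. Relative to the mean log2 level of these genes, Ccl7 differed by -1.59 in adapted/B6129SF1 against original/B6129SF1 and by 1.60 in adapted/C57BL/6 against adapted/B6129SF1, each without overlap (exact permutation p = 0.1, Benjamini-Hochberg adjusted 0.343). Ccl7 by itself already lay apart in both pairs, so these ratios are descriptions and add no evidence to it. Relative to the same level, Ccr2 differed by 0.61 in adapted/B6129SF1 against original/B6129SF1, and the groups overlapped (exact permutation p = 0.3). With the macrophage level as a covariate, Ccl7 kept its call (-1.49, limma adjusted p = 0.0401) and Ccr2 did not (1.18, limma adjusted p = 0.0776). That level ran from 6.71 to 7.07 in original/B6129SF1 and from 7.06 to 7.45 in adapted/B6129SF1. The covariate thus moved with the group, and the part of macrophages in either gene cannot be told apart from it.

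Genes of Ly6C-high monocytes, the main cells that carry Ccr2, did not shift as one. Of 6 such genes 5 were tested, 3 were higher in value in each adapted group than in original/B6129SF1, and 1 was called, Ms4a4c, in adapted/B6129SF1 (1.58, limma adjusted p = 0.0415). Ly6c2, the gene behind the name of these cells, read 5.65, 2.201 and 2.45 FPKM in original/B6129SF1, 7.65, 7.84 and 26.6 in adapted/B6129SF1 and 9.36, 8.11 and 11.8 in adapted/C57BL/6. No adapted tumor overlapped an original one, and the limma adjusted p was 0.0647 for adapted/B6129SF1 and 0.113 for adapted/C57BL/6. Plac8 had the same order, at 5.40 to 9.15, 12.5 to 42.7 and 14.8 to 22.5 FPKM. The remaining genes lay lower in value in both adapted groups, with log2 differences from original/B6129SF1 of -0.41 in adapted/B6129SF1 and -0.42 in adapted/C57BL/6 for Vcan, and -0.52 and -1.15 for F13a1, none of them called. They made up most of the sum of the list, which spanned 172 to 250 FPKM in original/B6129SF1, 123 to 307 in adapted/B6129SF1 and 114 to 191 in adapted/C57BL/6. Whether the number of monocytes bears on the Ccr2 values was not tested.

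All 5 genes of patrolling monocytes were tested, and 2 were called higher in both adapted groups, Ace, the angiotensin-converting enzyme (2.05 and 1.78, limma adjusted p = 0.0129 and 0.0218), and Spn, which encodes CD43 (1.44 and 1.31, limma adjusted p = 0.00547 and 0.00601). The other 3, which were not called, differed by -0.93 and -1.01 for Nr4a1, 0.60 and 0.23 for Treml4 and 0.82 and 1.04 for Itgal, so Nr4a1 lay lower in value in both adapted groups. In each case the first value is adapted/B6129SF1 and the second adapted/C57BL/6, each against original/B6129SF1. Genes of other leukocytes gave mixed results. The 4 general leukocyte genes summed to 248 to 270 FPKM in original/B6129SF1, 370 to 567 in adapted/B6129SF1 and 309 to 617 in adapted/C57BL/6, and 1 of them, Cd52, was called in adapted/B6129SF1 (1.12, limma adjusted p = 0.0491). In adapted/C57BL/6 Cd52 differed by 1.145 and just missed the call (limma adjusted p = 0.0513). Summed T cell genes reached 2.72 to 3.87 FPKM in original/B6129SF1, 4.61 to 21.9 in adapted/B6129SF1 and 14.4 to 22.2 in adapted/C57BL/6, and Cd3g was called in both (1.499 and 1.95, limma adjusted p = 0.0393 and 0.017). Of the 4 dendritic cell genes 2 were tested, and Clec9a was called in both (1.96 and 1.89, limma adjusted p = 0.00512 and 0.00449). The other, Zbtb46, differed by 0.62 and 0.38 and was not called. Flt3 and Xcr1 lay at no more than 0.689 and 0.321 FPKM and did not pass the filter. Mast cell genes, 5 of 6 tested, summed to 12.4 to 23.3 FPKM in original/B6129SF1, 20.6 to 93.1 in adapted/B6129SF1 and 9.35 to 18.3 in adapted/C57BL/6. Of these 5, 0 were called in any pair, and all 5 were higher in value in adapted/B6129SF1 than in original/B6129SF1, with a median log2 difference of 1.17, against -0.31 for adapted/C57BL/6. Neutrophil genes summed to 24.0 to 31.9, 8.40 to 24.6 and 25.0 to 48.9 FPKM, with Ly6g listed at 0 in 8 of 9 tumors, and no B cell or eosinophil gene passed the filter. Endothelial genes, markers of a possible source of Cx3cl1 and Ccl2, summed to 41.3 to 57.1, 44.6 to 66.5 and 51.6 to 63.3 FPKM, and 0 of 4 were called. Of 4 epithelial genes tested, only Krt8 was called, lower in both adapted groups (-1.32 and -1.12, limma adjusted p = 0.0189 and 0.0346). Krt18 differed by -0.94 and -0.93, Epcam by -0.26 and 0.01 and Cdh1 by -0.515 and 0.36, so the list did not shift as one. Their part in the members' values was not tested.

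Chemokines other than the members gave calls in both adapted groups. They are not a contrast to the members, since Ccl5 and Ccl3 also bind Ccr1 and attract monocytes. Of 10 further CC ligands tested, 2 were called higher in adapted/B6129SF1 and 3 in adapted/C57BL/6 against original/B6129SF1, and 0 lower. Ccl5, a T cell and monocyte attractant, rose from 12.9 ± 0.884 FPKM to 46.2 ± 19.3 and 43.5 ± 5.93 (SD, n = 3 each; 1.69 and 1.67, limma adjusted p = 0.00746 and 0.00645). Ccl1 was called in adapted/B6129SF1 at a low level, 2.16 ± 1.08 against 0.322 ± 0.0562 FPKM (1.20, limma adjusted p = 0.0293).

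Ccl3 and Ccl4, inflammatory chemokines made by activated leukocytes, rose in adapted/C57BL/6. Their levels were 6.59 ± 0.703 against 2.72 ± 0.340 FPKM (1.03, limma adjusted p = 0.0265) and 10.6 ± 1.81 against 3.03 ± 0.452 FPKM (1.52, limma adjusted p = 0.0356). In adapted/B6129SF1 they differed from original/B6129SF1 by 0.01 and 0.08, and a call in one group and not the other does not show that the groups differ, since 0 genes of any of these lists were called between adapted/C57BL/6 and adapted/B6129SF1.

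Of 12 CXC and XC ligands tested, 1 was called higher and 1 lower in adapted/B6129SF1, and 2 higher in adapted/C57BL/6. Cxcl9, a T cell attractant induced by interferon-gamma, rose from 11.9 ± 2.70 to 91.3 ± 46.1 FPKM in adapted/B6129SF1 and 145 ± 40.3 in adapted/C57BL/6 (2.69 and 3.49, limma adjusted p = 0.00933 and 0.00305). Its relative Cxcl10 rose in adapted/C57BL/6 (1.84, limma adjusted p = 0.0377) and differed by 0.58 in adapted/B6129SF1 (limma adjusted p = 0.415). Ppbp, a neutrophil attractant stored in platelets, fell in adapted/B6129SF1 from 22.0 ± 7.03 to 3.78 ± 3.39 FPKM (-2.43, limma adjusted p = 0.0259).

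**Figure D5:**
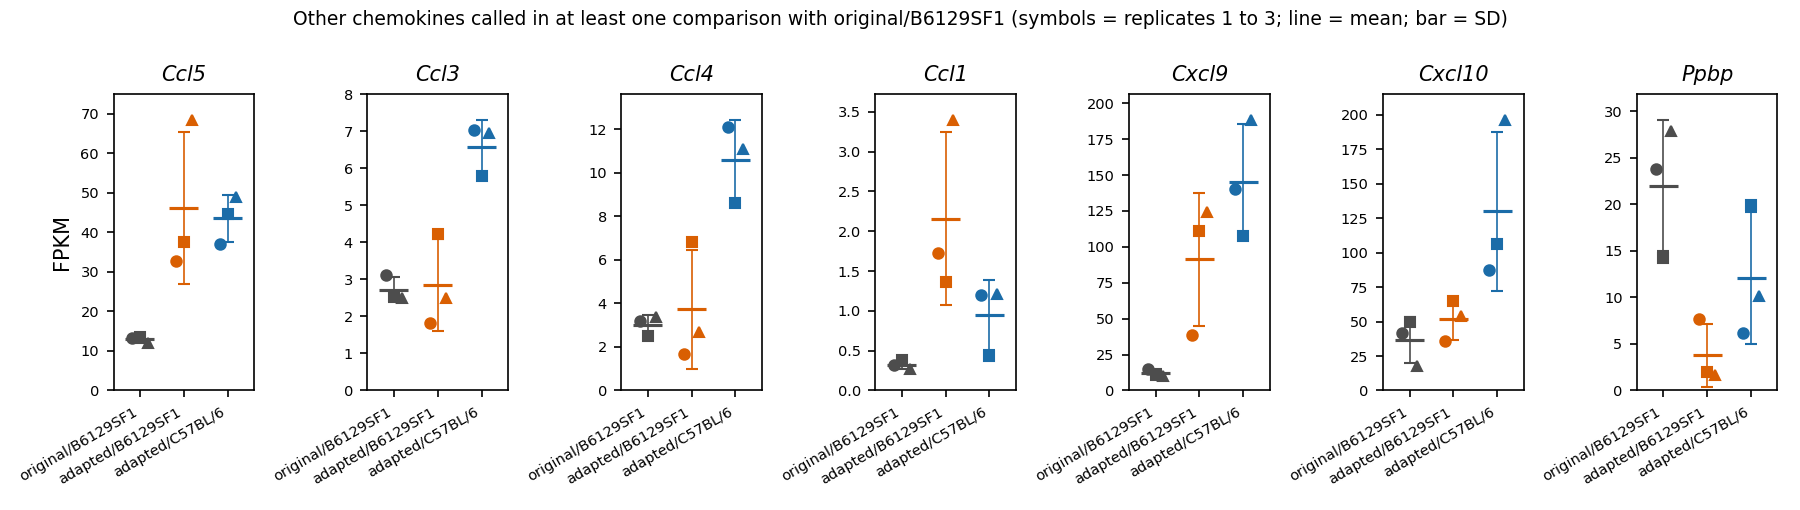
Level in FPKM of the 7 chemokines that are not among the 10 genes and were called against original/B6129SF1 in at least one adapted group (vertical axes), by group (horizontal axis); points are tumors, lines means and bars 1 SD of 3 tumors. Cxcl9 and Ccl5 are higher in all adapted tumors than in all original/B6129SF1 tumors, while the mean of Ppbp is lowest in adapted/B6129SF1, where its values overlap those of adapted/C57BL/6.

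Receptors other than the members, and the genes that carry their signal, gave few calls. Of 6 further chemokine receptors tested, 0 were called in any pair. Of 19 genes of receptor signalling and adhesion, 1 was called in both adapted groups against original/B6129SF1, Ptk2b, a calcium-regulated kinase of the focal adhesion kinase family, at 11.2 ± 1.14 FPKM in original/B6129SF1, 24.9 ± 2.54 in adapted/B6129SF1 and 23.5 ± 1.73 in adapted/C57BL/6 (limma adjusted p = 0.00242 and 0.00287). Of 8 proteases that can trim or release chemokines, 1 was called lower in both, Mmp2, a gelatinase that cleaves Ccl7, at 82.6 ± 10.8 FPKM in original/B6129SF1, 25.0 ± 15.3 in adapted/B6129SF1 and 16.1 ± 6.23 in adapted/C57BL/6 (-1.83 and -2.34, limma adjusted p = 0.0243 and 0.00949).

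Among the inducers of chemokines and monocyte growth factors, Ifng, which encodes interferon-gamma, was called in adapted/C57BL/6, at 2.29 ± 0.731 against 0.175 ± 0.0592 FPKM (1.46, limma adjusted p = 0.023). Over the 9 tumors Tnf, a classical inducer of Ccl2, stayed between 0.744 and 3.30 FPKM and was not called.

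The genes whose order over the 9 tumors was most like that of a member were found from the mean absolute difference in rank. For Ccl2 these were Ankib1 (0.444 ranks), Cdk6 and Ddx55 (0.667 each), against a median of 2.89 over the genes tested, while Ccl7 stood at place 32 with 1.11 and Ccl12 at place 205 with 1.56. For Ccr2 they were Cyp4v3 and Mrpl24 (0.444 each) and Agbl2 (0.667), against a median of 3.11. For Cx3cr1 they were Calm3, Coq5 and Edem1 (0.667 each), and Ccr2 stood at place 828 with 2.0. With 9 tumors many genes share such an order, and these distances are descriptions.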

How the data were processed

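RNA-seq was performed by the authors on 9 whole tumors, 3 per group, with groups and replicate numbers taken from the sample labels. Reads were checked with FastQC and aligned to mm10 with HISAT2, and the deposited FPKM values were made by the authors with Cuffnorm over all tumors. The gene annotation and the handling of fragments that match several genes are not given in the sources used here. FPKM are not counts, so no count test was used and absolute depth is unknown. The number of tumors limits the precision.

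Values were taken as log2(FPKM + 1), which understates changes of low genes, and fold changes are on that scale. Genes reaching 1 FPKM in 3 or more tumors, 10263 in all, entered one model of the 3 groups fitted with limma 3.58.1 in R 4.3.3 (eBayes with trend), with Benjamini-Hochberg adjustment over all of them. Log2 ratios were compared by exact two-sided permutation tests (scipy 1.17.1). The limma fit was also run on simulated data. Genes there were independent and their changes larger than those called for the members, so that run does not bear on these calls. At most 0.0487% of values were identical between any 2 tumors. The labels say biological replicate, and the p-values rest on the spread between these tumors. In the limma model that spread was estimated over all 3 groups.

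The members and the gene lists, written from general knowledge, were chosen with earlier results of these data known. Genes named are the members, called genes of the pathway lists, genes of marker lists, and for Ccl2, Ccr2 and Cx3cr1 the 3 genes nearest in rank. Ccr8 and Tnf were named for their relation to Ccl8 and Ccl2. List genes without a row in the table, the atypical receptors among them, were not analysed here, some results of the lists are not reported here, and a mouse genome and sequences were not used here. Alternatives were another scaling, filters, pseudocount, thresholds, a replicate block, only the groups compared, a macrophage covariate and each tumor left out.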

Additional observations from a re-analysis of the deposited data

How the results depend on the processing

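Of 480 alternative values of the members' log2 fold changes, 440 kept their direction and side of the thresholds, 19 lost and 1 gained a call, and 20 turned, all of the last being changes that were not called. Ccl7 and Ccr2 in adapted/B6129SF1 against original/B6129SF1 kept their directions in 16 of 16 alternatives and passed in 7 and 6. Members called there numbered 0 without a filter, 0 in a fit of only the groups compared and 1 with the macrophage covariate, and 0 to 2 with 1 tumor left out (0 to 1 for adapted/C57BL/6 against adapted/B6129SF1). With the replicate block also 0 members were called, and the counts over all genes were 242, 245 and 0 in place of 330, 317 and 3. Replicate numbers do not pair these tumors, which are different animals. Same-numbered tumors correlated from -0.388 to 0.614 over 9 pairs, and 3 of 9 tumors correlated best with their own number. Over all genes, leaving out 1 tumor gave 150 to 350 calls in adapted/B6129SF1 and 154 to 343 in adapted/C57BL/6 against original/B6129SF1, and 0 to 6 between the adapted groups. An adjusted p alone gave 850 and 693. The macrophage covariate gave 188 for adapted/B6129SF1 against original/B6129SF1, and 1 between the adapted groups, where no filter also gave 1 and only the groups compared 0. Fewer genes or tumors enter some of these fits, and the cause was otherwise not tested.

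Turned values under the macrophage covariate were, in adapted/B6129SF1 against original/B6129SF1, Ccl8 (-0.027), Ccl9 (-0.42) and Ccr1 (-0.074), and in adapted/C57BL/6 against adapted/B6129SF1, Ccl9 (0.079) and Ccr1 (0.20). With 1 tumor left out, changes ran from -0.26 to 1.07 for Ccl8 and -0.20 to 0.46 for Ccl9 in adapted/B6129SF1 against original/B6129SF1. They ran from -0.0014 to 0.40 for Ccl7, -0.34 to 0.10 for Ccl9, -0.49 to 0.33 for Cx3cr1 and -0.35 to 0.066 for the log2 ratio of Ccl7 to Ccl2 in adapted/C57BL/6 against original/B6129SF1. Between adapted/C57BL/6 and adapted/B6129SF1 they ran from -0.24 to 0.78 for Ccl6, -0.24 to 1.09 for Ccl8, -0.59 to 0.075 for Ccl9 and -0.14 to 0.23 for Ccr1.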
